A study of Mus musculus with 6 samples.

Results

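Semaphorins, plexins and neuropilins are a ligand and receptor family for guidance of growing axons and migrating cells. Of 30 named family genes, 29 had a probe under their own symbol on the array, and each was represented by the probe with the highest mean log2 intensity over the 6 arrays. These were 18 of 19 semaphorin genes, both neuropilin genes and all 9 plexin genes, with 74 probes in total. The gene named but not measured under its symbol was Sema3d. The family was compared between oligodendrocyte precursor cells (OPC) of 2 tissues, cerebrum (3 samples) and spinal cord (3 samples), on Illumina bead arrays. OPC are glial cells that divide, migrate and, once mature, wrap axons in myelin. All samples were primary cultures from C57BL/6 mouse pups at postnatal day 6 to 8, kept proliferating for 7 days with 10 ng/ml of the growth factor PDGF-AA. A preparation pooled 3 to 4 pups, and samples of the same replicate number came from the same preparation, so a sample is a pool of animals and there was no condition without PDGF-AA. By its title the series asked which genes of importance for migration are regulated differently by tissue of origin.

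Semaphorins are secreted (class 3), membrane-spanning (classes 4, 5 and 6) or anchored by a lipid (class 7). Plexins are their signalling receptors, with an intracellular domain that acts on small GTPases and so on the cytoskeleton. Neuropilins bind class 3 semaphorins and pass the signal on through A-type plexins. In the oligodendrocyte lineage, Sema3a is known as a repellent and Sema3f as an attractant of migrating precursors.

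Values are log2 probe intensities from the authors' value table. A probe was tested if it lay above a background floor on at least 3 arrays, the floor being the 95th percentile of the olfactory receptor probes of that array (6.07 to 6.10 in log2). Between 44.9% and 46.6% of the 45281 probes lay above it per array. Levels of different probes cannot be set against each other, so each gene is compared only with itself between the tissues. Differences are spinal cord OPC minus cerebrum OPC, tested with limma over all 20988 tested probes, and a gene was called at an adjusted p under 0.05. All 10 OPC markers listed for this comparison were above the floor. Pdgfra, the receptor for PDGF-AA, differed by -0.20 ± 0.10 (log2, SE, adjusted p = 0.586). Sox10 and Olig2, transcription factors of the lineage, differed by 0.11 ± 0.11 (adjusted p = 0.898) and -0.03 ± 0.09 (0.986), and the proteoglycan gene Cspg4 by 0.01 ± 0.10 (0.994). Gpr17, a receptor of committed precursors, was the 1 marker of this list called, and it was lower in spinal cord OPC (-1.37 ± 0.23, adjusted p = 0.00495). Ptprz1, a receptor phosphatase gene named after its values were seen, was lower only with the preparation as a block in the fit (-0.36, adjusted p = 0.212 without the block and 0.00777 with it).

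Of the 29 measured family genes, 22 were tested and 4 differed between the tissues. Plxnb3 and Sema6d were lower in spinal cord OPC, and Sema3a and Nrp2 were higher. That is 18.2% of the tested family genes, beside 2.95% of all 11225 tested genes. By direction, 2 genes were higher, where 1.87% of all tested genes were, and 2 were lower, where 1.08% were. Nrp2 was tested only because its spinal cord samples exceeded the floor, so its call gives the family count no support. Of the 18 family genes above the floor on all 6 arrays, Plxnb3, Sema6d and Sema3a were called and 15 were not. The 2.95% is over a wider set, genes above the floor on at least 3 arrays. The share called among all genes above it on all 6 arrays is not given here, so these counts stand without a background. The median difference of the 22 tested genes was 0.03 (log2), with 12 positive and 10 negative values, and that of all tested genes was 0.00. With the preparation as a block in the fit, 5 family genes passed (22.7%, beside 6.33% of all tested genes). Of these 2 were higher, where 3.63% of all tested genes were, and 3 were lower, where 2.7% were, the added gene being Plxnd1.

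**Figure D1:**
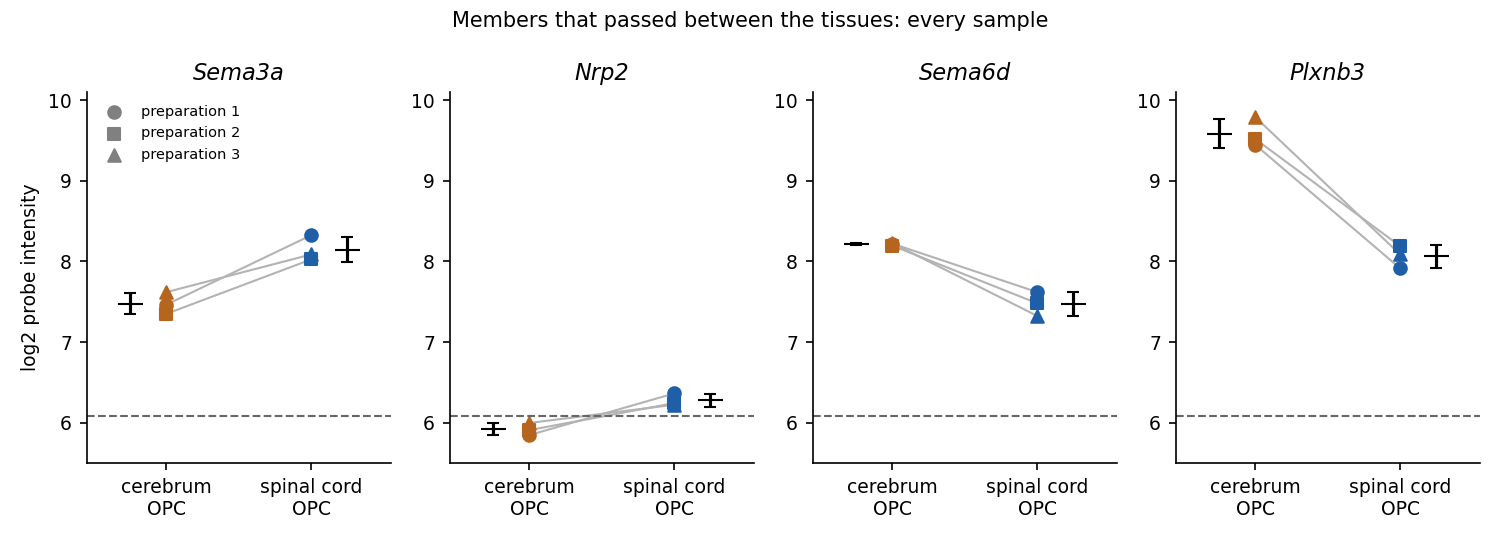
Log2 probe intensity of Sema3a, Nrp2, Sema6d and Plxnb3 in each of the 6 samples (points, shaped by preparation and joined within it), with the mean and SD of each tissue beside them (n = 3) and the mean background floor as a dashed line. All 3 preparations run upward for Sema3a and Nrp2 and downward for Sema6d and Plxnb3, and the cerebrum samples of Nrp2 lie below the floor; heights of different genes are not comparable.

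Plxnb3, which encodes plexin B3, a receptor for Sema5a, showed the widest gap of the family. Its log2 intensity was 9.45, 9.52 and 9.79 in cerebrum replicates 1 to 3 and 7.91, 8.19 and 8.09 in spinal cord replicates 1 to 3. The lowest cerebrum sample thus lay above the highest spinal cord sample by far more than either tissue's spread. The means were 9.58 ± 0.18 and 8.06 ± 0.14 (SD, n = 3 each), a difference of -1.52 ± 0.13 (SE) or 2.87-fold, with an adjusted p in limma of 1.43e-05. Within the 3 preparations the difference was -1.53, -1.33 and -1.70. Every fit without 1 array kept the call, with differences of -1.59 to -1.42. Plxnb3 had 1 probe, so no further probe bears on it.

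Sema6d encodes a membrane-spanning class 6 semaphorin that binds plexin A1. Its brightest probe, annotated to transcript variant 1, read 8.22, 8.20 and 8.23 in cerebrum replicates 1 to 3. In spinal cord replicates 1 to 3 it read 7.62, 7.48 and 7.33. The cerebrum samples were nearly identical and all above the spinal cord samples. The difference was -0.74 ± 0.11 (SE, adjusted p = 0.00205, limma), 1.67-fold, and -0.60, -0.71 and -0.90 within the preparations. Every fit without 1 array kept this call too, with differences of -0.81 to -0.66. A probe annotated to transcript variant 2 lay near the floor and did not pass (-0.13 ± 0.10, adjusted p = 0.837). The remaining 2 probes of Sema6d, annotated to transcript variant 1 like the brightest, were above the floor on none of the arrays.

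Sema3a encodes a secreted semaphorin that signals through neuropilin 1 and A-type plexins. Its log2 intensity was 7.46, 7.35 and 7.62 in cerebrum replicates 1 to 3 and 8.32, 8.02 and 8.09 in spinal cord replicates 1 to 3. The tissues did not overlap, and the gap between the nearest samples was larger than the spread within either. The means were 7.48 ± 0.13 and 8.15 ± 0.16 (SD, n = 3 each), a difference of 0.67 ± 0.12 (SE, adjusted p = 0.00856, limma), 1.59-fold. Within the preparations it was 0.86, 0.67 and 0.47. The call was lost without cerebrum replicate 2 (adjusted p = 0.0684) or without spinal cord replicate 1 (0.0543), while the difference stayed at 0.58 or more. A further Sema3a probe was below the floor on all 6 arrays.

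Nrp2 encodes neuropilin 2, the co-receptor that binds Sema3f. Its brightest probe read 5.85, 5.91 and 6.00 in cerebrum replicates 1 to 3, not above background, and 6.36, 6.24 and 6.22 in spinal cord replicates 1 to 3. Spinal cord OPC were therefore at least 1.14-fold higher, a bound against the floor, with an adjusted p in limma of 0.0446 for the measured difference. The spinal cord values were themselves only slightly above the floor. Leaving out single arrays ended the call 5 times of 6, at adjusted p of 0.0865 to 0.205, and only the fit lacking cerebrum replicate 3 kept it (0.0212). It was also lost after background subtraction (adjusted p = 0.183), without a filter on dim probes (0.0634) and without an intensity trend (0.0954). None of the other 5 Nrp2 probes was tested.

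DNA upstream of the called genes is shown to give the sequence context of the starts listed for them. RefSeq's promoter table (GRCm38.p6) matched 24 of the 29 measured genes. The windows hold the 250 bases before the listed start, and capitals mark matches on either strand to 4 short motifs chosen with the results known. ACAAAG and ACAATG are cores bound by SOX factors, TGATNNAT is a core bound by PBX and HOX proteins together, and TAATTA is a homeodomain core.
Plxnb3, chrX:73756853-73757102, plus strand: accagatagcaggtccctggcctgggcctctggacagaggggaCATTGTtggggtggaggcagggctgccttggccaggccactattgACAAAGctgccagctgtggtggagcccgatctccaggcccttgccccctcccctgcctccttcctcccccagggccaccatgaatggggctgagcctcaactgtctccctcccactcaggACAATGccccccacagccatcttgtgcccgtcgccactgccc
Sema3a, chr5:13396534-13396783, plus strand: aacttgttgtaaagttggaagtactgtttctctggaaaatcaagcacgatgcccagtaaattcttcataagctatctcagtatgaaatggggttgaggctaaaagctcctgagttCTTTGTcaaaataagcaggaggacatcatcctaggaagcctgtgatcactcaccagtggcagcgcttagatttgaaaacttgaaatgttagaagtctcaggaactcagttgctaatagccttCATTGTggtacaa
Sema6d, start in the gene body, chr2:124653331-124653580, plus strand: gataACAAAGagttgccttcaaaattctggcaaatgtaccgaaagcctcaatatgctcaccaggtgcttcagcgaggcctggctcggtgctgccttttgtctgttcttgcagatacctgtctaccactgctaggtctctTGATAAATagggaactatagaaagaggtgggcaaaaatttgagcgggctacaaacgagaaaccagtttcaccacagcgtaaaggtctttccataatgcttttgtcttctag
The Plxnb3 window held ACAATG on the opposite strand 207 bases before the start, ACAAAG at 162 and ACAATG at 42. The Sema3a window held 2 matches, ACAAAG at 135 and ACAATG at 13 bases before the start, both on the opposite strand. The Sema6d window held ACAAAG at 246 and TGATNNAT, read as TGATAAAT, at 111 bases before the start. At least 2 matches to the SOX cores, as in the Plxnb3 and Sema3a windows, were found in 4.12% of all 32851 windows of the table. ACAAAG was in 16.5% of them, ACAATG in 10.7%, TGATNNAT in 7.68% and TAATTA in 4.84%. The upstream Sema6d start and the Nrp2 start had no match. All 3 printed windows lie inside the gene's RefSeq span, so the annotated gene begins upstream, and the arrays do not show which start the cells used. A match is a description of letters and no evidence of binding.

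Of the other secreted class 3 semaphorins, Sema3b and Sema3f were tested and did not pass. Sema3f, the attractant named above, read 5.91, 6.07 and 6.04 in cerebrum and 6.28, 6.13 and 6.14 in spinal cord replicates 1 to 3. The cerebrum samples were not above background and the spinal cord samples barely so, a bound of at least 1.07-fold (adjusted p = 0.566). A second Sema3f probe leaned the same way (0.28 ± 0.08, adjusted p = 0.137). Sema3b, also near the floor, differed by -0.0026 ± 0.096. Sema3c, and Sema3e, the ligand of plexin D1, were not tested. No Sema3c value exceeded the floor, and Sema3e exceeded it in cerebrum replicates 1 and 3 only.

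None of the 5 tested class 4 semaphorins passed. Sema4a, known for roles in immune cells, had 7.46, 7.55 and 7.59 in cerebrum against 7.56, 7.55 and 7.57 in spinal cord OPC, a difference of 0.02 ± 0.10 with a 95% interval of -0.19 to 0.24. Sema4d, made by oligodendrocytes and a ligand of plexin B1, had spinal cord values of 6.20, 6.20 and 6.21, above all cerebrum values (6.13, 6.18 and 5.86), but all lay near the floor and the difference did not pass (0.15 ± 0.10, adjusted p = 0.747). Sema4f, known to be made by OPC, differed by 0.04 ± 0.10, with an interval of -0.17 to 0.25. Sema4b differed by -0.10 ± 0.14 and Sema4g by -0.19 ± 0.11. Sema4c, a ligand of plexin B2, exceeded the floor in 1 sample of each tissue and was not tested.

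Among the remaining membrane semaphorins only Sema6d passed. Sema5a, made by oligodendrocyte lineage cells and inhibitory to axons, differed by 0.07 ± 0.19, with a wide interval of -0.35 to 0.49. Its 4 tested probes all had differences between 0.04 and 0.14. Sema5b differed by -0.15 ± 0.13. Sema6a, which takes part in oligodendrocyte maturation, differed by 0.07 ± 0.11 (interval -0.16 to 0.30) and Sema6b by -0.01 ± 0.11 (interval -0.24 to 0.22). Sema7a, the lipid-anchored semaphorin, differed by 0.04 ± 0.13 (interval -0.23 to 0.31). Sema6c was below the floor on all arrays.

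**Figure D2:**
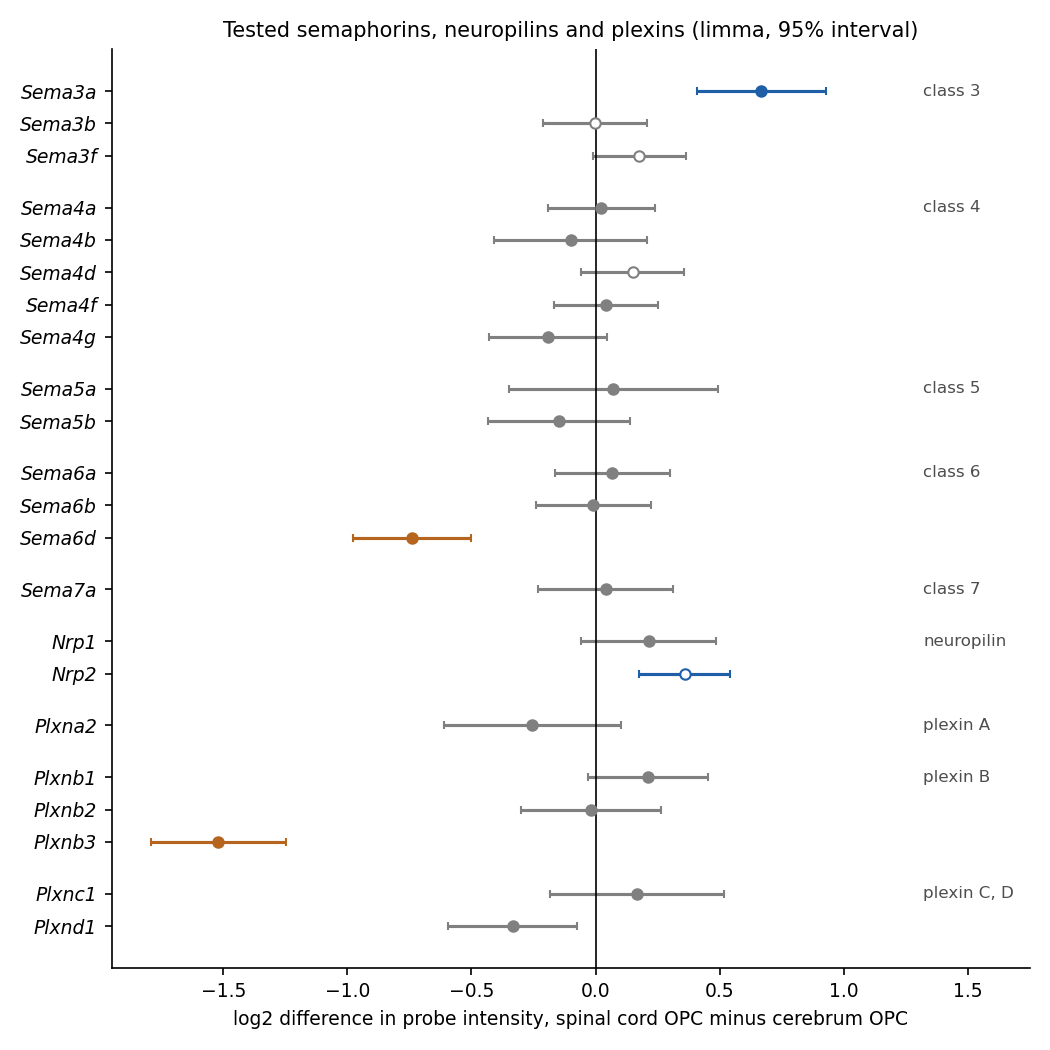
Log2 difference of probe intensity, spinal cord OPC minus cerebrum OPC, with its 95% interval (limma, n = 3 samples a tissue) for the 22 tested family genes, ordered by class; blue and brown mark genes called higher and lower, and open circles mark genes not above the floor on all 6 arrays. Plxnb3 at -1.52 and Sema6d at -0.74 stand to the left, Sema3a at 0.67 to the right, and most others have intervals that include 0.

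Of the receptors, Nrp1, the co-receptor of Sema3a, had 7.63, 7.53 and 7.19 in cerebrum against 7.70, 7.70 and 7.59 in spinal cord OPC. Spinal cord replicate 3 lay below cerebrum replicate 1, and the difference of 0.21 ± 0.13 did not pass (adjusted p = 0.697). Without 1 array it ranged from 0.082 to 0.31. A second Nrp1 probe gave 0.15 ± 0.13. Among A-type plexins Plxna2, a receptor of Sema6a, was the only gene tested. It read 10.30, 10.07 and 9.60 in cerebrum and 9.90, 9.75 and 9.55 in spinal cord replicates 1 to 3, lower within each preparation (-0.40, -0.32 and -0.045). Its difference of -0.26 ± 0.16 did not pass (adjusted p = 0.75). It depended on single arrays, passing at -0.45 without cerebrum replicate 3 (0.0387) and shrinking to -0.10 without cerebrum replicate 1 (0.912). Plxna1, Plxna3 and Plxna4, the other partners of neuropilins and class 6 semaphorins, were not tested, and of their values only that of Plxna4 in 1 spinal cord sample exceeded the floor.

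The other B-type plexins were not called. Plxnb1, the main receptor of Sema4d, differed by 0.21 ± 0.11 (adjusted p = 0.629). Plxnb2, which also binds class 4 semaphorins, had 9.15, 9.10 and 8.96 in cerebrum against 9.23, 9.13 and 8.80 in spinal cord OPC, a difference of -0.02 ± 0.13 with an interval of -0.30 to 0.26. That interval does not reach the difference of Plxnb3. Plxnc1, the receptor of Sema7a, differed by 0.17 ± 0.16 (adjusted p = 0.901), and by 0.0034 to 0.38 without 1 array. Plxnd1, the receptor of Sema3e, read 7.31, 7.38 and 7.03 in cerebrum and 6.82, 7.07 and 6.82 in spinal cord replicates 1 to 3. It was lower within each preparation (-0.48, -0.31 and -0.21), and the tissues overlapped only between cerebrum replicate 3 and spinal cord replicate 2. Its difference of -0.33 ± 0.12 did not pass in limma (adjusted p = 0.284), passed with the preparation as a block (0.0492) and passed without cerebrum replicate 3 (0.0285).

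Complete separation of the tissues' samples was seen in 6 of the 22 tested family genes (27.3%), beside 15.6% of all tested genes. Of these, 4 were higher in spinal cord OPC (Sema3a, Sema3f, Sema4d and Nrp2), where 8.55% of all tested genes were, and 2 were lower (Sema6d and Plxnb3), where 7.02% were. Sema3f, Nrp2 and Sema4d all lay near the floor. Sema3f and Nrp2 were tested only through the spinal cord samples, where they are high, so their separation gives this count no support.

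The spread between preparations is described beside the tissue difference. The range of the 3 preparation means was wider than the tissue difference in 14 of the 22 tested family genes (63.6%), beside 76.5% of all tested genes. A range over 3 means of 2 arrays tends to exceed a difference of 2 means of 3 arrays, so the count alone shows no preparation effect. It was wider in 0 of the 4 called genes. A call needs a tissue difference that is large beside the spread within the tissues, so this 0 is largely set by the calling. Sema5a showed the widest range (0.67 in log2), being highest in preparation 3 in both tissues (8.78 in cerebrum and 8.63 in spinal cord). Plxna2 had a range of 0.52 and Plxnc1 of 0.42, both lowest in preparation 3. In all, preparation 3 was the lowest in 12 and the highest in 8 of the 22 genes.

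**Figure D3:**
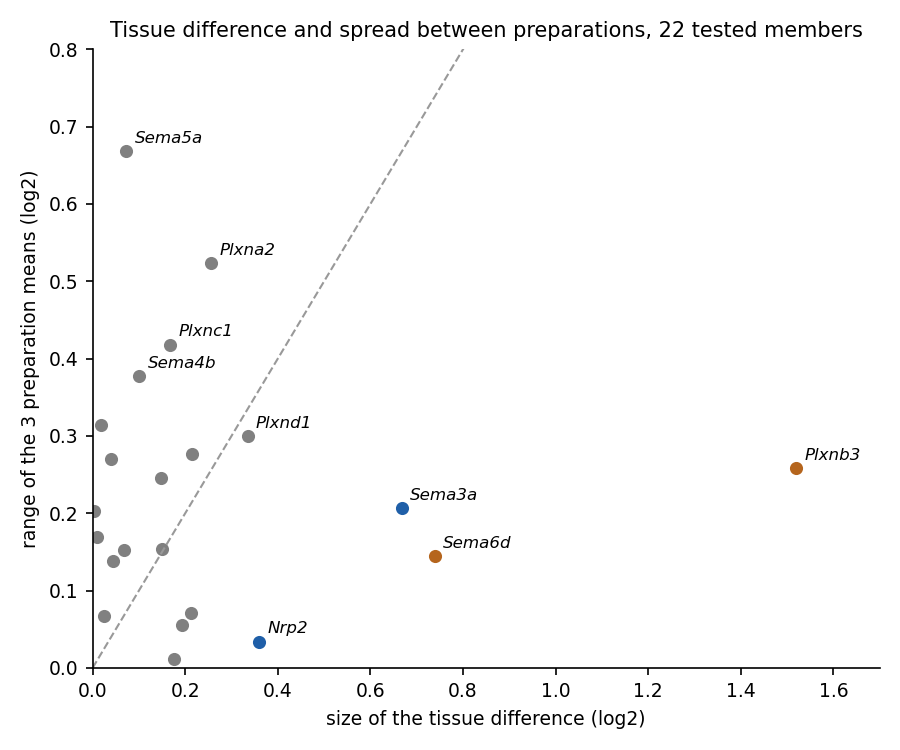
Size of the tissue difference (horizontal, log2) against the range of the 3 preparation means (vertical, log2) for the 22 tested family genes, with called genes in blue (higher in spinal cord OPC) and brown (lower) and equality as a dashed line. Sema5a lies at the top left with a range of 0.67, and Plxnb3 lies alone at the far right.

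Known ligand and receptor pairs were set side by side. Of 16 pairs listed, 7 had both genes tested, and in 0 of them were both called. Sema5a differed by 0.07 while its receptor gene Plxnb3 differed by -1.52. Sema3a differed by 0.67 and Nrp1 by 0.21, both positive, and Sema3f and Nrp2 were positive as well (0.18 and 0.36, both near the floor). Sema4d and Plxnb1 had 0.15 and 0.21, and Sema6a and Plxna2 had 0.07 and -0.26. The A-type plexin that binds Sema6d, Plxna1, was below the floor in every sample.

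Genes that work with the family were followed in 3 lists of co-receptors and other ligands, signalling proteins below plexins, and collapsin response mediator proteins (CRMPs). Of 62 listed genes 46 were tested, and 2 passed (4.35%, beside 2.95% of all tested genes). Chl1 encodes an adhesion molecule that acts as a neuropilin co-receptor. It read 7.03, 7.17 and 6.62 in cerebrum, and was not above background in spinal cord OPC (5.99, 5.74 and 5.72). The cerebrum level exceeded the floor's by at least 1.81-fold (adjusted p = 0.000345). Chl1 was tested only through its cerebrum samples, so its call gives the count of partner genes no support. Dpysl5, a CRMP gene, was higher in spinal cord OPC, with 8.91, 8.69 and 8.44 against 8.22, 7.81 and 7.55 in replicates 1 to 3. Its difference was 0.83 ± 0.17 (SE, adjusted p = 0.0189). Fits lacking cerebrum replicate 2 (adjusted p = 0.114), or 1 of spinal cord replicates 1 and 2 (0.111 and 0.106), ended this call, as did background subtraction (0.0553).

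None of the 30 tested signalling genes passed without the block, and their median difference was -0.03. The largest differences were those of Limk1, a kinase that acts on cofilin (0.70 ± 0.19, adjusted p = 0.108), and Mical1, a redox enzyme that disassembles actin filaments below plexins (-0.43 ± 0.15, 0.287). With the preparation as a block 10 of the 46 genes passed (21.7%, beside 6.33% of all tested genes), 3 higher and 7 lower. Limk1 and Mical1 were then among them (adjusted p of 0.000728 and 0.0117). All 3 tested Mical1 probes had differences from -0.44 to -0.41 and passed in that fit. Others that passed only there, named after their values were seen, were the GTPase gene Rnd2 (-0.43), the kinase genes Cdk5 (-0.40) and Fyn (-0.34), the exchange factor gene Arhgef11 (-0.32), the growth factor gene Vegfa (-0.41) and Dpysl4 (0.32). The second tested probe of Fyn and the 2 further tested probes of Dpysl4 did not pass.

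**Figure D4:**
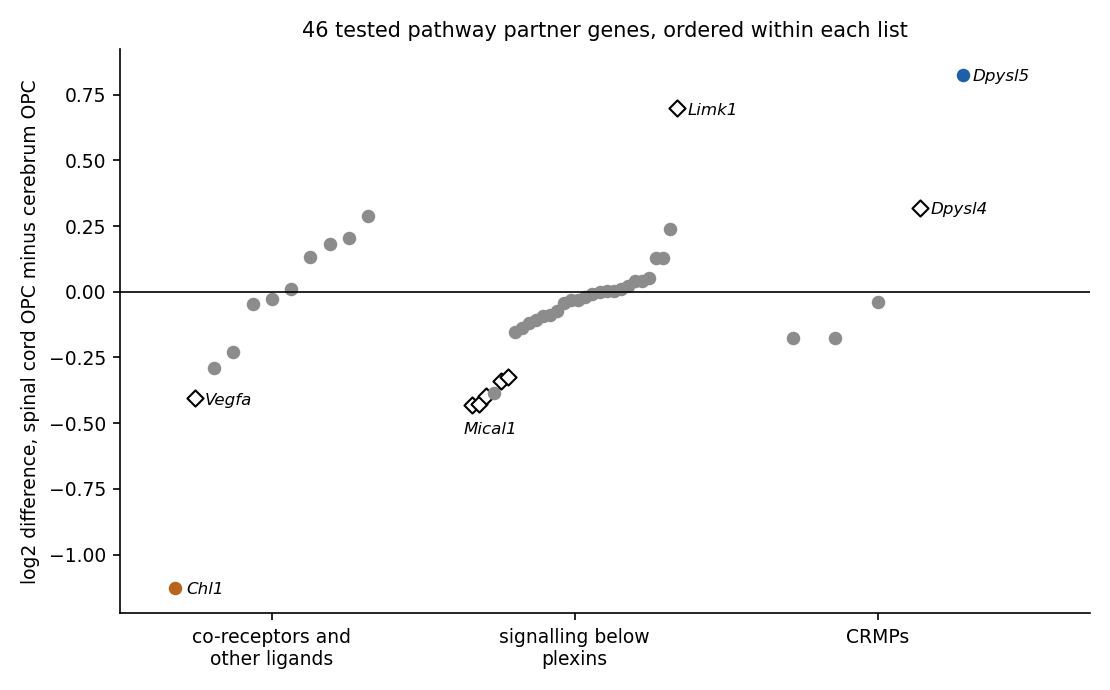
Log2 difference, spinal cord OPC minus cerebrum OPC, of the 46 tested partner genes in 3 lists, ordered by value within each list; blue and brown circles passed without a block, and open diamonds passed only with the preparation as a block. Chl1 at -1.13 and Dpysl5 at 0.83 are the 2 genes that passed in both fits.

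Markers of other cell types and of differentiation were read in the same arrays, and in cultures fewer cells of a type cannot be told apart from less RNA per cell. Beside the lower Gpr17 given above, the myelin gene Mbp rose in spinal cord over cerebrum OPC (1.04 ± 0.11, adjusted p = 0.000111, limma). Of 9 myelin markers 4 were tested and Mbp alone passed without the block. With it Mag and Cnp passed as well, both higher in spinal cord OPC. The summed intensity of the myelin list was 2526 to 4127 in cerebrum and 2771 to 3485 in spinal cord OPC, and that of the 10 OPC markers 76702 to 86299 and 70382 to 76526. The summed intensity of 8 astrocyte markers was higher in spinal cord OPC, at 15489 to 16915 against 13389.9 to 14427, although 0 of the 5 tested passed. Of 10 microglial markers 6 were above the floor on no array, as were 5 of 9 endothelial and mural and 5 of 8 meningeal markers, and none of these lists had a called gene without the block. With it Ptgds, a meningeal marker, and Aldoc, an astrocyte marker, were called higher (adjusted p of 0.00545 and 0.0126). None of the 3 tested of 8 neuron markers passed. Of 5 tested Schwann cell and neural crest markers Sox2 was lower (-0.70 ± 0.14, 0.0166) and Gap43 higher (0.40 ± 0.10, 0.0483). Both were above the floor on all 6 arrays. Pmp22, Egr2 and Ngfr, the others tested of this list, passed in neither fit, and Ngfr lay near the floor (0.09 ± 0.11, adjusted p = 0.934). The part of these marker shifts in the differences of Plxnb3, Sema6d and Sema3a was not tested.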

How the data were processed

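Total RNA from 6 OPC cultures was labelled as biotinylated cRNA for Illumina arrays, per the labels' protocols. The submitters' processing notes name GenomeStudio 2011.1. The values the authors deposited are linear probe intensities. Their normalisation step is not stated. All arrays share the same lowest and highest value and nearly the same median (64.5), so the distributions appear to have been equalised. Background was not visibly removed (olfactory receptor median 52.3 to 53.0), so fold changes of dim genes are understated. A further table held 12 columns of per-sample values that match no label, and only its annotation was read.

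Log2 intensities were fitted with limma 3.58.1 in R 4.3.3 (lmFit, eBayes with trend, Benjamini-Hochberg adjustment), without a block. A probe had to exceed the floor, set from 1302 olfactory receptor probes, on 3 arrays. All genes were counted by their brightest tested probe under symbols updated through RefSeq's gene table for GRCm38.p6, where 8933 of 30869 symbols matched none. Fits were tested on simulated data. A bound sets the brighter tissue's mean against the floor, or the probe's own value if higher.

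Same-numbered samples share a preparation per the labels, and their deviations from the tissue means correlated with 0.53, 0.21 and 0.50 across probes, against -0.45 to 0.03 for other pairs. The numbers were taken as pairs. The fit with the replicate number as a block is printed where it changes a call or clearly moves a count. The median SE was 0.11 without it and 0.09 with it, and the number of arrays limits precision. Named genes were all family members, called genes of the partner and marker lists (or the 2 largest differences where none of a partner list was called), and 4 OPC markers. Members, lists, pairs and motifs were chosen with earlier results of these data known. Alternatives covered normalisation, background, pseudocount, dim-probe filters, the variance trend, averaging over probes and leaving out each sample.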

Additional observations from a re-analysis of the deposited data

How the results depend on the processing

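The calls and directions of Plxnb3, Sema6d and Chl1 held in every fit in which they were tested, Plxnb3 between -1.73 and -1.36 and Sema6d between -0.97 and -0.44 (log2). With the replicate block the count over all genes rose from 331 to 711 and that of partner genes from 2 to 10, and that of family genes rose from 4 to 5. The partner count was 1 after background subtraction and 1 with probes above the floor on all 6 arrays, where Chl1 was no longer tested. Without 1 array the counts ranged from 196 to 574 (all genes), 2 to 6 (family genes) and 1 to 4 (partner genes). The family count was 2 without cerebrum replicate 2 or spinal cord replicate 1. It was 6 without cerebrum replicate 3, where 574 of all genes passed too. The cause of these shifts was not tested.

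Some differences near 0 changed sign. Sema3b became 0.13 after background subtraction and Sema6b 0.047 with probes averaged. Without 1 array the ranges that crossed 0 were -0.055 to 0.096 (Sema3b), -0.012 to 0.050 (Sema4a), -0.28 to 0.0059 (Sema4b), -0.019 to 0.11 (Sema4f), -0.12 to 0.32 (Sema5a), -0.23 to 0.00040 (Sema5b), -0.050 to 0.057 (Sema6b), -0.047 to 0.13 (Sema7a), -0.11 to 0.11 (Plxnb2), -0.019 to 0.064 (Cspg4) and -0.054 to 0.0034 (Olig2). Gap43 and Sox2 lost their calls in 5 and 3 of the 6 fits without 1 array. For the 8 family genes with no tested value, 7 near or below the floor and Sema3d, the arrays give no difference.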

Other observations

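The protein-coding gene next to Plxnb3 in RefSeq's gene table (GRCm38.p6, chromosome X), Srpk3, which encodes a kinase of splicing factors, was singled out after its values were seen. Srpk3 read 8.89, 9.13 and 9.76 in cerebrum replicates 1 to 3 and 7.15, 7.51 and 7.43 in spinal cord replicates 1 to 3. The tissues did not overlap, and the difference of -1.90 ± 0.19 (log2, SE, adjusted p = 7.38e-05, limma) ran in the direction of Plxnb3. Among the neighbours of the other called genes only Ino80d, beside Nrp2, was tested, and it was not called (-0.09 ± 0.12, adjusted p = 0.951, limma). Pard3b, beside Nrp2, and Sqor and Slc24a5, beside Sema6d, were not tested. Sema3d and Gm6647, beside Sema3a, had no probe, so nothing is known here of the neighbours of Sema3a.

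A probe listed under the clone name 6230425C21Rik, an older symbol of Plxnd1 in that table, was not among the family probes. It read 6.35, 6.61 and 6.46 in cerebrum and 6.13, 6.41 and 6.30 in spinal cord replicates 1 to 3, lower in spinal cord within each preparation, and did not pass (-0.19 ± 0.10, adjusted p = 0.635, and 0.308 with the replicate block).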
